A study of Homo sapiens with 8 samples.

Results

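The genes described here encode the heat shock proteins and their DNAJ co-chaperones, with the heat shock factors that switch some of them on. They were found by symbol: the DNAJA, DNAJB and DNAJC families, HSPA (HSP70), HSPB (small heat shock proteins), HSP90, HSPH1, HSPD1, HSPE1 and HSF. Each gene was read from the probe set annotated to it alone that had the highest mean. The rule found 81 of 17958 genes measured in this way, and no measured difference entered it. A filter on low signal (mean log2 signal below 4.37, the 30th percentile of all genes) left 65 of the 81 chaperone genes among 12570 genes, and all tests ran over those 12570. Of the 65, 29 act in the cytosol or nucleus, 13 in the endoplasmic reticulum (ER), 9 in mitochondria and 5 on vesicles. A further 3 encode small heat shock proteins and 1 a heat shock factor. The remaining 5 are HSF2BP, a meiotic protein that is itself neither a chaperone nor a heat shock factor, and 4 HSP90 pseudogenes. The 16 genes under the filter included HSF5, HSPB3, HSPB8, HSPB9 and most of the 12 pseudogenes. Another 10 symbols, HSPA1B and HSPA7 among them, occurred only in probe sets shared with other genes, and HSF2 was not analysed here.

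HEL is a human erythroleukemia cell line, and every culture was of this 1 line, so no untransformed blood cell stands beside it. Cells received DMSO (control), 0.5 µM of the JAK2 inhibitor LY2784544, 20 µM of the telomerase inhibitor GRN163L, or both agents, and were harvested after 48 hours. The labels do not restate the doses for the combination, and they name no control oligonucleotide for GRN163L. The 4 treatments were run in 2 separate experiments with 1 array each, 8 arrays in all, so n = 2 for every group.

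Chaperones help other proteins to fold, to stay folded and to be taken apart. HSP70 proteins grip exposed stretches of a client and release them in a cycle driven by ATP. A DNAJ protein delivers the client and starts the ATP step, and a nucleotide exchange factor such as HSPH1 ends it. HSP90 takes over late-folding clients, many of them kinases, JAK2 among them. When unfolded protein builds up in the cytosol, HSF1 binds heat shock elements (inverted repeats of GAA) and switches on HSPA1A, HSPA6 and DNAJB1. The ER has its own alarm, the unfolded protein response, which raises HSPA5, HSP90B1, DNAJB9 and DNAJC3.

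The values are log2 RMA signals (robust multi-array average, a summary of the probes of a probe set after normalization across arrays), so a difference of 1 is a doubling. Differences are given with a standard error (SE) from a fit with limma over all 4 groups. A gene was called when its p, adjusted by Benjamini-Hochberg over the 12570 genes, was under 0.05. The same fit with the experiment as a block compares arrays within an experiment, and its value is given where it changes a call. Array medians over the tested genes lay between 7.23 and 7.51, and the 4 arrays with LY2784544 had the 4 lowest. Over all probe sets this was not so: the medians lay between 5.07 and 5.25. The lowest there were the first control array (5.07) and the second GRN163L array (5.11). All 11 measured erythroid and megakaryocyte markers passed the filter, with HBE1 at 12.535, ITGA2B at 11.242 and GATA1 at 10.407. Of the markers of other cells, 2 of 7 lymphocyte, 4 of 7 monocyte, 3 of 7 fibroblast and 4 of 7 epithelial genes passed. Among these were LYZ (10.465), KRT18 (8.492), KRT8 (6.685) and CD2 (6.35), while CD3E (3.455), CD14 (3.539) and EPCAM (3.766) were low. The median of 335 olfactory receptor genes, a measure of background, was between 3.22 and 3.52 on the 8 arrays.

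Some stress-inducible chaperones differed widely between arrays. The upstream sequences of 5 of them, those more than 2-fold apart between the control arrays, are shown. HSF1 acts through elements upstream of such genes. Of the 5, 4 are cytosolic and DNAJB9 is an ER gene. The 250 bases before a RefSeq start site are given 5′ to 3′ on the gene's strand (build GRCh38.p14), with matches to GAANNTTC or TTCNNGAA in capitals. The genes were chosen for display after their values were seen. Where a gene had several windows, the window with the most matches is shown, so its matches are partly set by that choice. The sequences lie at chr6:31815293-31815542 (plus strand) for HSPA1A, chr1:161524290-161524539 (plus) for HSPA6, chr19:14518398-14518647 (minus) for DNAJB1, chr1:78004689-78004938 (plus) for DNAJB4 and chr7:108569624-108569873 (plus) for DNAJB9.
HSPA1A: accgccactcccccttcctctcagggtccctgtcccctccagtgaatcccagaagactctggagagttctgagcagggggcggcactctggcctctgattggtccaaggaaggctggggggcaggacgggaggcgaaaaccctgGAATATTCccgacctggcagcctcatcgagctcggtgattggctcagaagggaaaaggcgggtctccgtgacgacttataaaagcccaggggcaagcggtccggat
HSPA6: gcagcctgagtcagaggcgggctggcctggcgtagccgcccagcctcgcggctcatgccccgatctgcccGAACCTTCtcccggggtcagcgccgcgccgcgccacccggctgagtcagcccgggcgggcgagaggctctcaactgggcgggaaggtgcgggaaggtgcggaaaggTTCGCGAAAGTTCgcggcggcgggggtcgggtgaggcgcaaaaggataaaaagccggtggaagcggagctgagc
DNAJB1: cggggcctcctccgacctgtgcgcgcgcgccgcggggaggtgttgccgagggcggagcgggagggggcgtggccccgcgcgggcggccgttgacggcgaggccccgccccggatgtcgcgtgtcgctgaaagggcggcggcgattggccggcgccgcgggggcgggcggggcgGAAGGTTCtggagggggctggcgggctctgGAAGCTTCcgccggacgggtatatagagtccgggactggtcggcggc
DNAJB4: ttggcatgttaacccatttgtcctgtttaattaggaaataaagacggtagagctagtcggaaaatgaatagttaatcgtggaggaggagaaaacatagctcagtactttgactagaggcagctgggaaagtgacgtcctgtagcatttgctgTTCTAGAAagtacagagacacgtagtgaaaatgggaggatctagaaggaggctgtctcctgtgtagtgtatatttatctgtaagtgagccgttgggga
DNAJB9: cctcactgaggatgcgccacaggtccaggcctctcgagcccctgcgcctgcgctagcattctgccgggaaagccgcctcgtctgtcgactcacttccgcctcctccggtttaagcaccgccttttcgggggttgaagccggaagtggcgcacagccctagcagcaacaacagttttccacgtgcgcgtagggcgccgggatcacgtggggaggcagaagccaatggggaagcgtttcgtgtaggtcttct

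HSPA1A carried GAATATTC at -106 from the start. HSPA6 carried GAACCTTC at -180 and a run in which TTCGCGAA at -74 overlaps GAAAGTTC at -69. In the DNAJB1 window shown, 1 of 3 for that gene, GAAGGTTC lay at -77 and GAAGCTTC at -47. The DNAJB4 window, 1 of 2, held TTCTAGAA at -98, while the other DNAJB4 window held neither pattern. The windows shown for DNAJB1 and DNAJB4 lie inside the annotated gene and not at its outer start. Neither pattern was in the DNAJB9 window. Over windows of 300 bases (250 before to 50 after the start, both strands), either pattern occurred in 17 of the 55 tested chaperone genes with a window (30.9%), against 16.2% of 27305 genes. By site of action, 11 of 26 cytosolic genes, 3 of 9 mitochondrial genes, 2 of 3 small heat shock genes, 1 of 5 vesicle genes and 0 of 12 ER genes held one. A match describes letters in a window and not bound protein, and a missing match says only that these letters are not there.

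HSF1 itself, the regulator of the heat shock response, varied little. Its signal was 9.49 and 9.47 on the control arrays of experiments 1 and 2, 9.65 and 9.44 under LY2784544, 9.55 and 9.44 under GRN163L, and 9.37 and 9.35 under both agents. The combination arrays were the lowest, but the largest difference between groups, both agents against LY2784544, was -0.185. It was not called in any comparison.

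The 5 inducible genes just shown followed a like order over the arrays, and the control arrays were the odd pair. HSPA1A, the main stress-induced HSP70, read 10.72 and 8.28 on the control arrays of experiments 1 and 2. It read 9.06 and 8.59 under LY2784544, 11.04 and 10.81 under GRN163L, and 8.74 and 7.99 under both agents. It was therefore high on both GRN163L arrays and on the first control array, and low on the second control array and on all 4 arrays with LY2784544.

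HSPA6, an HSP70 that is nearly silent without stress, read 7.54 and 5.32 in controls, 5.16 and 5.18 under LY2784544, 8.53 and 7.0 under GRN163L, and 5.31 and 5.16 under both. DNAJB1, the HSP40 that pairs with inducible HSP70, read 10.78 and 9.32 in controls, 9.18 and 9.13 under LY2784544, 10.98 and 11.09 under GRN163L, and 9.48 and 9.09 under both. The order of the arrays was close to that of HSPA1A. DNAJB4, a relative of DNAJB1 named after its values were seen, read 8.15 and 6.20 in controls, 6.91 and 6.69 under LY2784544, 7.93 and 7.86 under GRN163L, and 6.93 and 6.84 under both. DNAJB9, which helps the ER HSP70 and is induced by ER stress, read 6.46 and 5.22 in controls, 5.49 and 5.40 under LY2784544, 6.22 and 6.47 under GRN163L, and 5.22 and 5.08 under both. In each of these genes the second control array lay with the LY2784544 and combination arrays, or close to them, and not with the first control array.

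The gap between the control arrays (experiment 1 minus experiment 2) was 2.44 for HSPA1A, 2.22 for HSPA6, 1.95 for DNAJB4, 1.46 for DNAJB1 and 1.24 for DNAJB9. These were 5 of the 65 chaperone genes more than 2-fold higher on the first control array, and 0.732% of all tested genes (92 genes) were. By the size of the gap HSPA1A ranked 2, HSPA6 ranked 4 and DNAJB4 ranked 7 of 12570. Not every gene with a heat shock element match was so far apart. HSP90AA1, HSPB1 and DNAJA1 held one too, and their gaps were -0.08, -0.08 and -0.25. Between the GRN163L arrays only HSPA6 among the chaperones differed by more than 2-fold in this direction, beside 0.207% of all genes. Between the LY2784544 arrays HSPA4L and HSP90AA6P were more than 2-fold lower in experiment 1, beside 1.07% of all genes. Culture handling before harvest was not recorded in the labels, and its part in the gap between the controls was not tested.

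**Figure D1:**
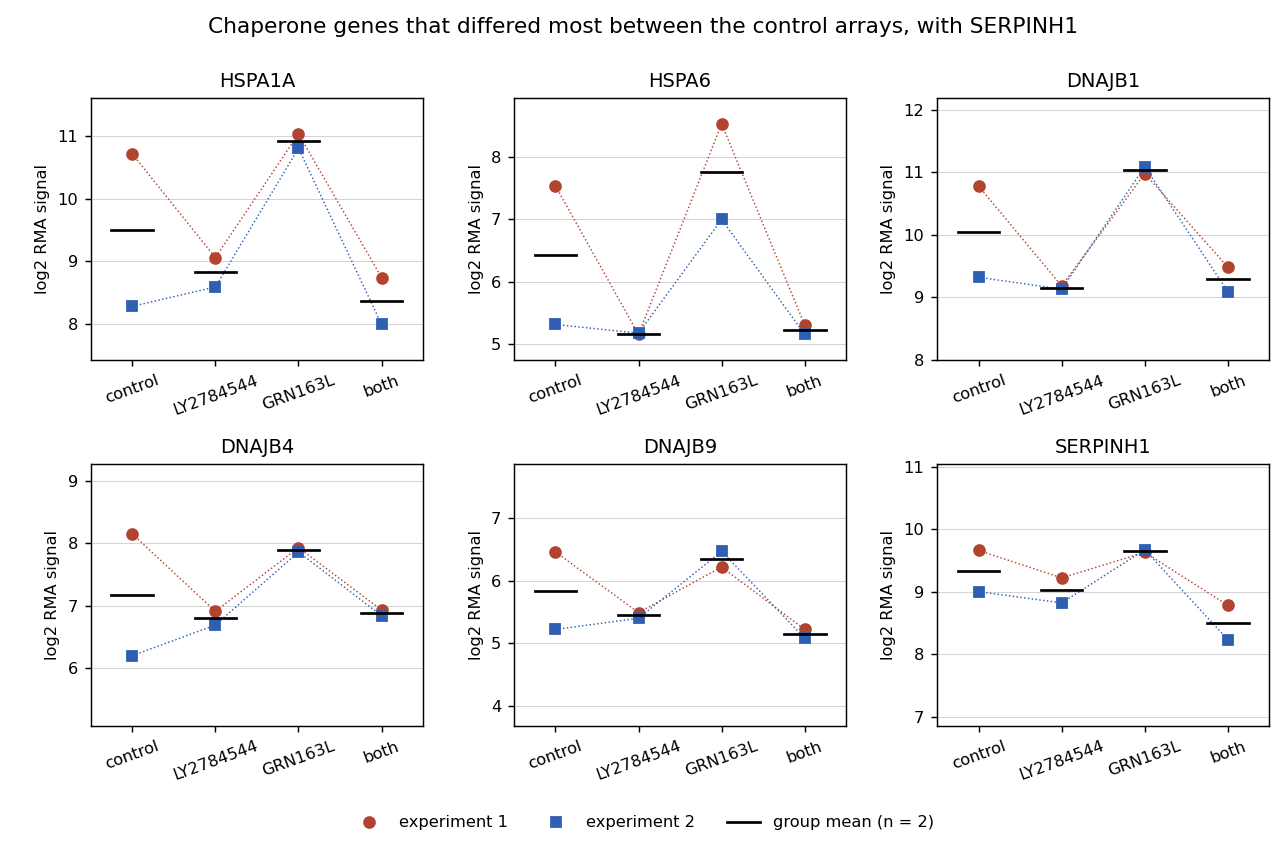
Log2 RMA signal (vertical axis) of HSPA1A, HSPA6, DNAJB1, DNAJB4, DNAJB9 and the collagen chaperone SERPINH1 in the 4 treatment groups. Circles are experiment 1, squares experiment 2, and bars are group means (n = 2); in the first 5 panels the control arrays are 1.24 to 2.44 apart and both GRN163L arrays lie above all arrays with LY2784544.

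The spread of the controls set what could be said against them. GRN163L alone gave HSPA1A a mean of 10.925 ± 0.16 (SD, n = 2) against 9.50 ± 1.73 in controls, a difference of 1.425 (SE 0.642, 95% interval -0.04 to 2.89, adjusted p = 0.995). Within the experiments this difference was 0.32 and 2.53. DNAJB1 differed by 0.985 (0.20 and 1.77 within the experiments) and HSPA6 by 1.335 (0.99 and 1.68), both with an adjusted p of 0.995. For DNAJB4 the difference changed sign between the experiments (-0.22 and 1.66), as it did for DNAJB9 (-0.24 and 1.25). No chaperone gene was called for GRN163L against control, with or without the block, and 0% of all genes were. At an unadjusted p under 0.05 there were 2 chaperone genes and 595 genes in all. Without overlap between the arrays, 13 of 65 chaperone genes were higher with GRN163L (17.5% of all genes) and 6 were lower (16.4%).

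LY2784544 alone gave HSPA1A a difference from control of -0.675 (-1.66 and 0.31 within the experiments, adjusted p = 0.716). HSPA6 differed by -1.26 (-2.38 and -0.14) and DNAJB1 by -0.895 (-1.60 and -0.19), with adjusted p of 0.474 and 0.378. The combination against control gave -1.135 for HSPA1A (adjusted p = 0.323), -1.195 for HSPA6 (adjusted p = 0.315) and -0.765 for DNAJB1 (adjusted p = 0.278). These comparisons use the same control arrays as the one above. Without the second control array, HSPA1A (-2.36) and DNAJB1 (-1.50) were each called lower in the combination, with an adjusted p of 0.0499; over the alternatives it ran up to 0.919 and 0.95.

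The combination against GRN163L alone does not use the control values, and there HSPA1A, HSPA6 and DNAJB1 were far apart. HSPA1A was 5.9-fold lower with both agents than with GRN163L alone: the difference was -2.56 (SE 0.642, 95% interval -4.02 to -1.10), and -2.30 and -2.82 within the experiments. HSPA6 was 5.78-fold lower (-2.53, SE 0.664, within the experiments -3.22 and -1.84). DNAJB1 was 3.36-fold lower (-1.75, SE 0.391, within the experiments -1.50 and -2.0). No array of one group overlapped the other in these genes.

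Whether they passed the threshold depended on how the spread was estimated. Over all 8 arrays, which pools in the control pair, the adjusted p was 0.138 for HSPA1A, 0.151 for HSPA6 and 0.108 for DNAJB1. With the experiment as a block all 3 were called, at 0.0356, 0.0457 and 0.0439. Over the alternatives tried, the adjusted p ran from 0.0285 to 0.509 for HSPA1A, 0.0457 to 0.435 for HSPA6 and 0.032 to 0.494 for DNAJB1, and the difference stayed negative. Without either control array the adjusted p was 0.032 for HSPA1A and DNAJB1, and DNAJB9 was called too (0.0448); the highest values came from leaving out a GRN163L or combination array. DNAJB9 differed by -1.195 (SE 0.337, adjusted p = 0.175, 0.0933 with the block) and DNAJB4 by -1.01 (adjusted p = 0.394, 0.222 with the block). The interaction, which asks whether LY2784544 acted differently with GRN163L present, was -1.885 for HSPA1A (SE 0.908, adjusted p = 0.999).

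Counted over all 65 genes, the combination against GRN163L had 1 call, DNAJC5G higher, a gene that passed the filter only through its arrays with LY2784544, beside 0.541% of all genes called and 0.0716% called higher. With the block it had 4 (DNAJC5G higher, and HSPA1A, HSPA6 and DNAJB1 lower), which was 6.15% of the chaperone genes beside 1.69% of all genes, 0.247% higher and 1.44% lower. Without overlap between arrays 23 of 65 chaperone genes were lower (31.3% of all genes) and 7 higher (14.4%). The counts without overlap were near those shares and are no result about the family. At an unadjusted p under 0.05 in the limma fit without the block, there were 13 chaperone genes (20%, 12 of them lower) and 1816 of all genes (14.4%). The share called with the block was above that of all genes, but it rests on 4 genes and changed with the settings. The median difference was -0.11 for the 65 genes and -0.08 for all genes, and that of the 65 genes was 0.08 with the arrays set to 1 median. That setting moves all genes up by the same amount, so the distance between the 65 genes and all genes stays.

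**Figure D2:**
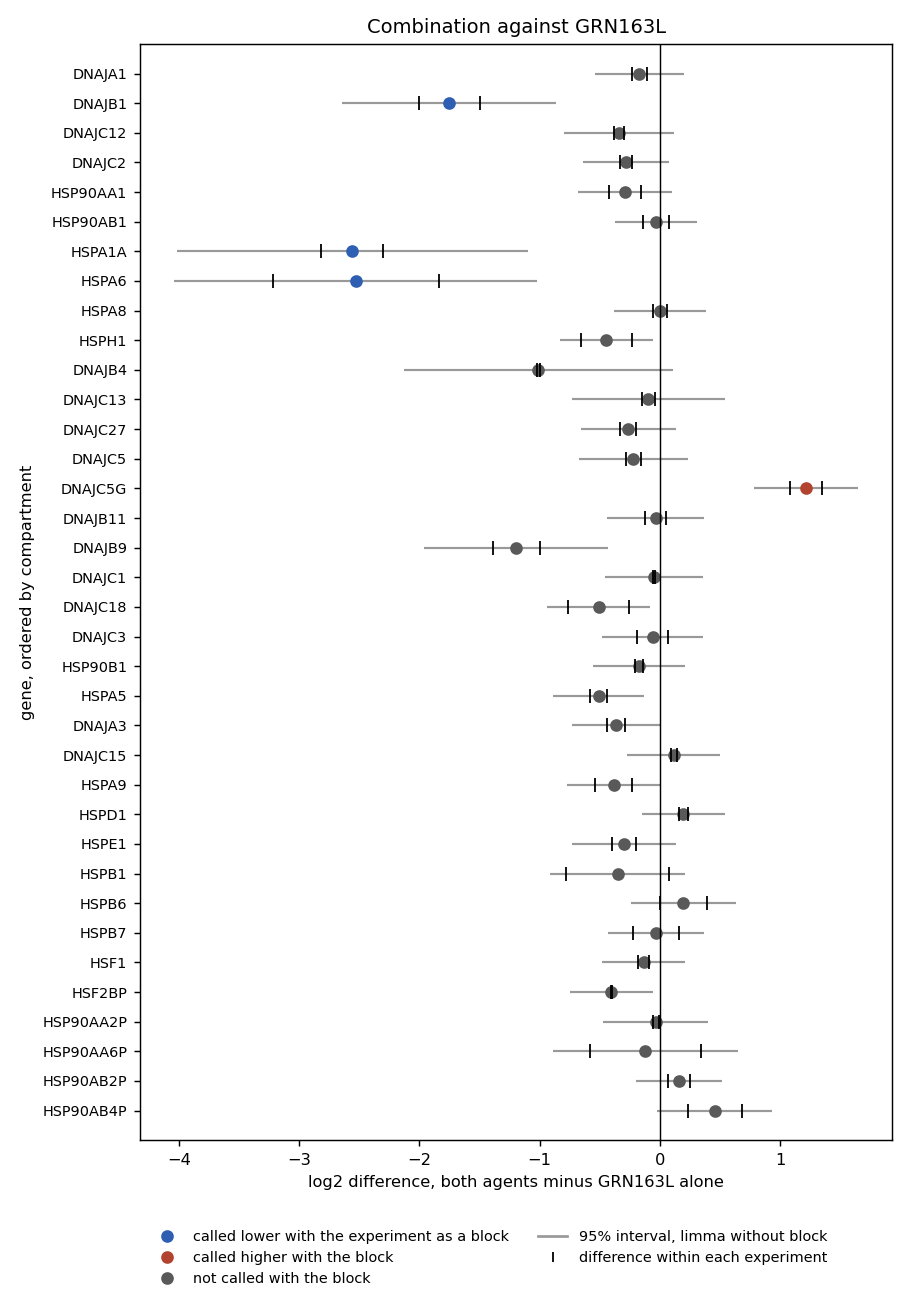
Log2 difference between both agents and GRN163L alone (horizontal axis) for the chaperone genes listed, with 95% intervals from the fit over 8 arrays and ticks for the difference within each experiment. Colour marks the genes called with the experiment as a block; HSPA1A (-2.56) and HSPA6 (-2.53) lie farthest to the left and DNAJC5G (1.215) to the right.

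The constitutive cytosolic chaperones were nearly level. HSPA8, the everyday HSP70, read 12.53 and 12.67 in controls, 12.65 and 12.66 under LY2784544, 12.81 and 12.64 under GRN163L, and 12.87 and 12.58 under both agents. The groups overlapped, and no difference between groups was over 0.125. HSP90AB1, the constant HSP90, differed by -0.14 between the combination and control (95% interval -0.48 to 0.20).

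HSP90AA1, the more inducible HSP90, read 11.03 and 11.11 in controls, 10.93 and 11.08 under LY2784544, 10.96 and 11.05 under GRN163L, and 10.54 and 10.89 under both. Both combination arrays were below all others, but the difference from control (-0.355, 95% interval -0.74 to 0.03) was not called (adjusted p = 0.252). HSPH1, the exchange factor, read 10.11 and 10.19 in controls, 9.72 and 9.58 under LY2784544, 10.08 and 10.44 under GRN163L, and 9.85 and 9.78 under both. The 4 arrays with LY2784544 lay below the 4 without it, though LY2784544 against control (-0.50, SE 0.17) had an adjusted p of 0.24. DNAJA1, a general DNAJ partner of HSPA8, read 7.6 and 7.85 in controls, 7.86 and 7.94 under LY2784544, 7.41 and 7.6 under GRN163L, and 7.30 and 7.37 under both. Its combination arrays were lowest, and the difference from LY2784544 alone was -0.565 (adjusted p = 0.189).

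This separation of the 4 arrays with LY2784544 from the 4 without was counted after it was seen in HSPA5. Besides HSPH1, 6 chaperone genes were lower on all arrays with LY2784544: HSPA5, HSPA6, DNAJA2, DNAJC18, DNAJC27 and HSF2BP. That made 7 of 65 (10.8%), beside 8.66% of all genes. In the other direction there was 1 gene, DNAJC5G, beside 3.33% of all genes. These shares were near the background.

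**Figure D3:**
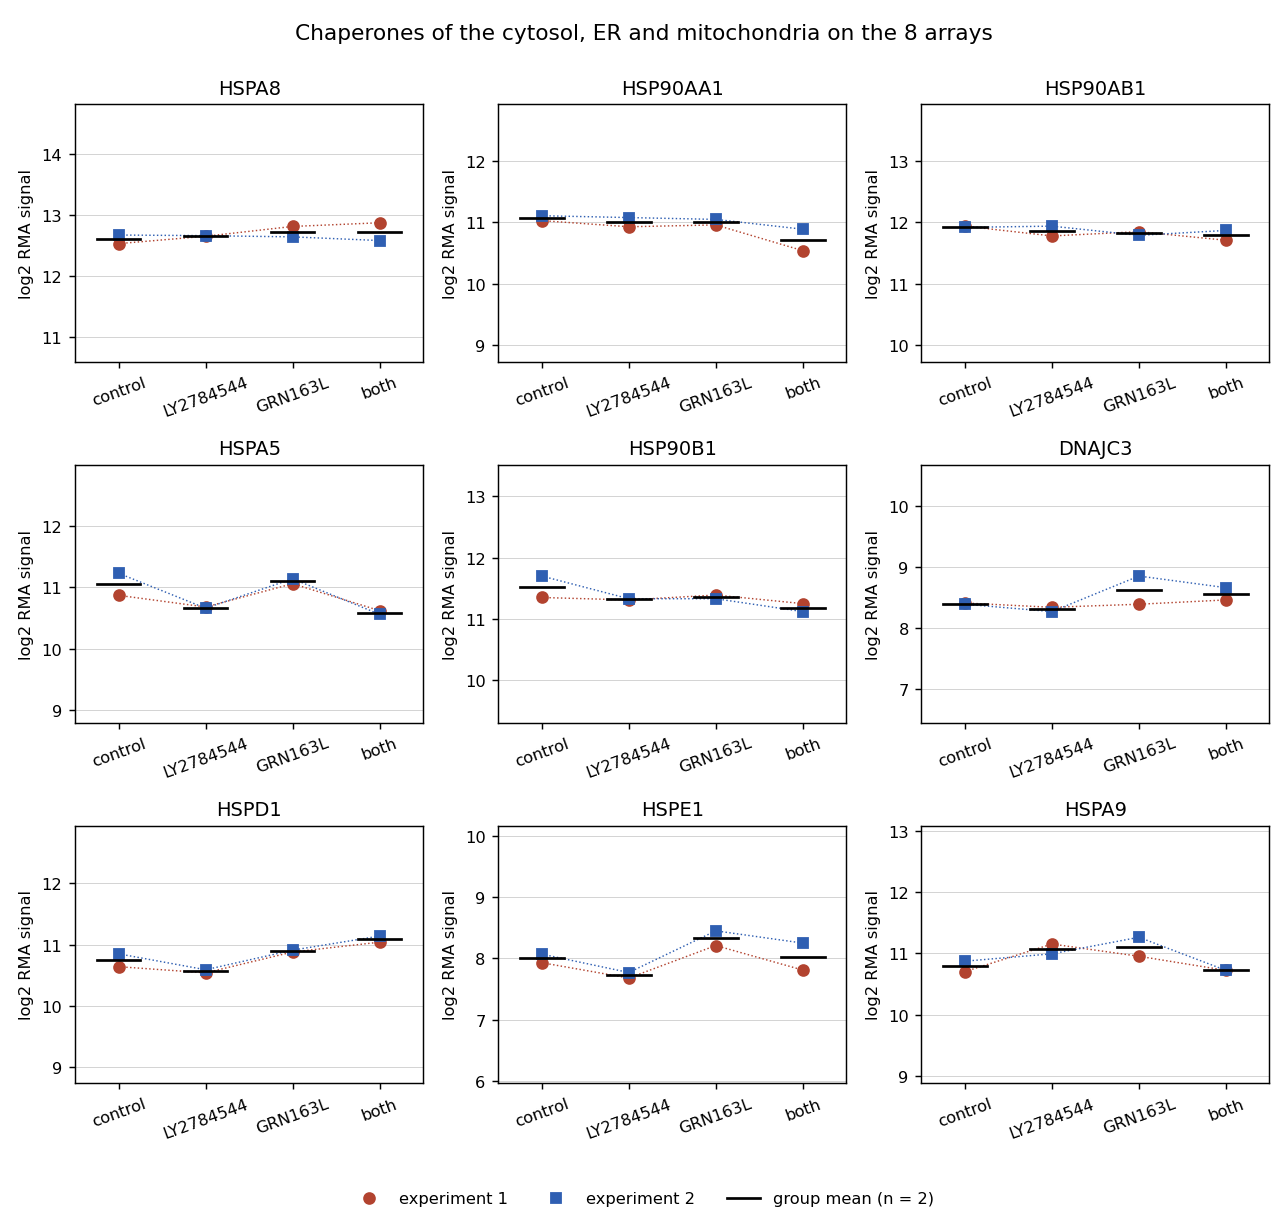
Log2 RMA signal (vertical axis) of constitutive chaperones of the cytosol (HSPA8, HSP90AA1, HSP90AB1), the ER (HSPA5, HSP90B1, DNAJC3) and mitochondria (HSPD1, HSPE1, HSPA9) in the 4 groups; circles and squares are experiments 1 and 2 and bars are means (n = 2). The vertical axes span the same number of log2 units within this plot, and HSPA8 stays between 12.53 and 12.87.

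Among the other DNAJ genes of the cytosol, DNAJC12 was lowest where GRN163L was present and DNAJC2 where LY2784544 was given alone. DNAJC12, a co-chaperone of the aromatic amino acid hydroxylases, read 7.71 and 7.92 in controls, 8.04 and 7.76 under LY2784544, 7.04 and 7.43 under GRN163L, and 6.74 and 7.05 under both. The arrays with GRN163L were all below those without it, and the share of all genes parted in this way was not counted. DNAJC12 fell in the combination against control by 0.92 (SE 0.203, -0.97 and -0.87 within the experiments, adjusted p = 0.0482), from 7.815 ± 0.15 to 6.895 ± 0.22 (SD, n = 2). The adjusted p ran from 0.0231 with the block to 0.225 over the alternatives tried, and the call was lost with no level filter (0.0552), on the groups compared alone (0.0841), with a mean-variance trend (0.0528) and with median (0.0757) or quantile (0.0758) normalization. It was also lost without either control array (0.126 and 0.196), without either GRN163L array (0.077 each) and without the first combination array (0.225). Against LY2784544 alone the difference was -1.005 (SE 0.203, adjusted p = 0.0965, called at 0.0438 with the block, 0.0438 to 0.346 over the alternatives). For GRN163L alone against control it was -0.58 (adjusted p = 0.995).

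DNAJC2, which sits on the ribosome with HSPA14 and meets new chains as they emerge, read 8.0 and 8.16 in controls, 7.31 and 7.47 under LY2784544, 8.15 and 8.34 under GRN163L, and 7.92 and 8.01 under both. The 2 arrays with LY2784544 alone were below the other 6. LY2784544 against control gave -0.69 in each experiment (SE 0.159, adjusted p = 0.089), called lower with the block (0.0357; 0.0357 to 0.413 over the alternatives). HSPA14, named after its values were seen, read 7.90 and 8.29 in controls, 7.38 and 7.94 under LY2784544, 7.74 and 7.98 under GRN163L, and 7.2 and 7.78 under both. Experiment 1 was lower in every group, and within each experiment the combination was lowest. The combination against control gave -0.605 (SE 0.263, adjusted p = 0.213), called lower with the block (0.0395; 0.0395 to 0.716 over the alternatives).

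For LY2784544 against control no chaperone gene was called, beside 1.27% of all genes, with 7 chaperone genes and 1656 of all genes at an unadjusted p under 0.05. With the block DNAJC2 was the 1 call (1.54% of the chaperone genes), beside 2.74% of all genes called and 1.96% called lower. For the combination against control, DNAJC5G was called higher and DNAJC12 lower. That was 3.08% of the chaperone genes beside 3.47% of all genes (0.756% higher, 2.71% lower). DNAJC5G passed the filter only through its arrays with LY2784544, so its call adds no support to this count. With the block there were 4 calls (6.15%), DNAJC5G again among them, beside 11.0% of all genes, 2.84% higher and 8.15% lower. For the combination against LY2784544 alone there was no call among the chaperones, beside 0.310% of all genes. At an unadjusted p under 0.05 there were 13 chaperone genes (20%) and 1696 of all genes (13.5%). With the block HSPB1 and DNAJC12 were called lower (3.08%), beside 1.60% of all genes and 1.03% lower. The interaction had no call with or without the block, beside 0% of all genes. At an unadjusted p under 0.05 it had 2 chaperone genes (3.08%) and 464 of all genes (3.69%).

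Of the small heat shock proteins, which hold unfolding clients without ATP, HSPB1 was the 1 gene far above the filter. It read 9.73 and 9.81 in controls, 10.46 and 10.91 under LY2784544, 9.89 and 9.73 under GRN163L, and 9.11 and 9.81 under both. Both arrays with LY2784544 alone were above the other 6. LY2784544 against control gave 0.915 (SE 0.248, adjusted p = 0.14, 0.0617 with the block). With both agents HSPB1 was 2.34-fold lower than with LY2784544 alone: the difference was -1.225 (SE 0.248, -1.35 and -1.10 within the experiments), with an adjusted p of 0.0965 and a call at 0.0384 with the block. Over the alternatives the adjusted p ran from 0.0384 to 0.339. The interaction was -1.265 (SE 0.351, adjusted p = 0.864). HSPB6 (4.11 to 4.61 over the 8 arrays) and HSPB7 (4.39 to 4.79) lay near the filter.

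Of the vesicle genes, DNAJC5G, a testis-type member of the cysteine string proteins, differed from a low signal. It read 3.93 and 4.28 in controls, 5.01 and 4.94 under LY2784544, 4.27 and 4.14 under GRN163L, and 5.62 and 5.22 under both agents. The 4 arrays with LY2784544 lay above the 4 without it. All 4 arrays without LY2784544 were below the filter of 4.37, so the gene was tested only through the arrays where it was high. Its calls are given as a description, and its level without LY2784544 was not well measured. The combination was above control by 1.315 (SE 0.193, 1.69 and 0.94 within the experiments, adjusted p = 0.0132), from 4.105 ± 0.25 to 5.42 ± 0.28 (SD, n = 2). It was above GRN163L alone by 1.215 (SE 0.193, adjusted p = 0.0391). LY2784544 against control gave 0.87 (adjusted p = 0.0817, 0.0528 with the block). Over the alternatives the adjusted p of the first ran from 0.00814 to 0.0779 and of the second from 0.0243 to 0.292. The first call was lost without either control array (0.0779 and 0.0537) or the first combination array (0.0658). The second was lost without either control array (0.0539 each), either GRN163L array (0.226 and 0.292) or the first combination array (0.16). The median of the olfactory receptor genes, a measure of background, was 3.22 and 3.27 in controls, 3.47 and 3.40 under LY2784544, 3.31 and 3.29 under GRN163L, and 3.52 and 3.36 under both. Background was thus also higher on arrays with LY2784544, by less than DNAJC5G, and its part in the result was not tested. DNAJC5, the widely expressed member of that family, read between 6.79 and 7.34. DNAJC13, which works on endosomes, read between 8.07 and 9.25, and DNAJC27 between 5.41 and 5.92. None of these 3 was called in any comparison.

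**Figure D4:**
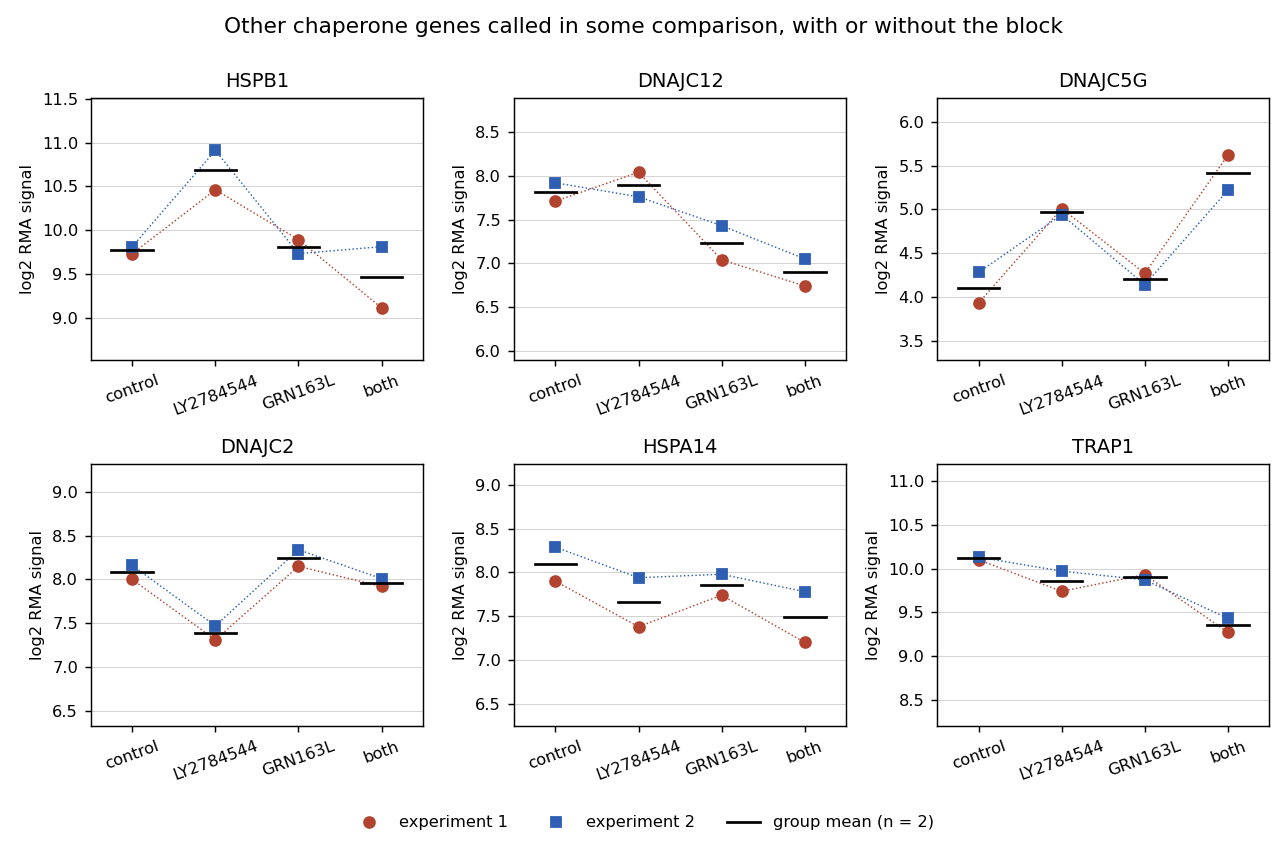
Log2 RMA signal (vertical axis) of HSPB1, DNAJC12, DNAJC5G, DNAJC2, HSPA14 and the mitochondrial HSP90 gene TRAP1 in the 4 groups; circles and squares are experiments 1 and 2 and bars are means (n = 2). HSPB1 is highest with LY2784544 alone (10.46 and 10.91), and DNAJC5G is highest with both agents (5.62 and 5.22).

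The ER chaperones had no call in any comparison, with or without the block. HSPA5, the ER HSP70 and the usual sensor gene of the unfolded protein response, carried the ER stress element (a CCAAT box and a CCACG, 9 bases apart), which was found in 0.0769% of 35116 windows (27 windows). Of the windows of tested chaperone genes 2 held it, those of HSPA5 and HSP90B1. The 250 bases before its start, on the minus strand at chr9:125241344-125241593, are shown with the element, at -66, in capitals.
HSPA5: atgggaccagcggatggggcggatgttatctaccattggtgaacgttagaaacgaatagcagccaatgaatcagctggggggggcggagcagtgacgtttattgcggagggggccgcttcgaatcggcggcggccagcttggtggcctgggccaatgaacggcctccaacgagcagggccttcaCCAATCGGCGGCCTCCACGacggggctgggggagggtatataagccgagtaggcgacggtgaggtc

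HSPA5 read 10.87 and 11.23 in controls, 10.68 and 10.66 under LY2784544, 11.06 and 11.14 under GRN163L, and 10.62 and 10.56 under both agents. The 4 arrays with LY2784544 lay in a narrow range below the other 4. LY2784544 against control gave -0.38 (SE 0.167, adjusted p = 0.379), and the combination gave -0.46 against control (adjusted p = 0.149) and -0.51 against GRN163L alone (adjusted p = 0.231). HSP90B1, the ER HSP90, read 11.35 and 11.70 in controls, 11.31 and 11.33 under LY2784544, 11.39 and 11.33 under GRN163L, and 11.25 and 11.12 under both. Its combination arrays were lowest, with a difference from control of -0.34 (adjusted p = 0.263).

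DNAJC3, which restrains the kinase PERK and serves HSPA5, read between 8.27 and 8.85 over the 8 arrays, and DNAJB11, an ER DNAJ of the lumen, between 8.60 and 8.96. DNAJC18, a DNAJ of the ER membrane, read 7.25 and 6.87 in controls, 6.73 and 6.77 under LY2784544, 6.81 and 7.11 under GRN163L, and 6.55 and 6.35 under both. The combination against control gave -0.61 (SE 0.189, adjusted p = 0.107). DNAJC1 read 9.21 and 8.78 in controls, 8.78 and 8.58 under LY2784544, 9.23 and 9.18 under GRN163L, and 9.17 and 9.14 under both. Its LY2784544 arrays were at or below all others. Of the 13 ER genes 11 lay below 0 in the combination against GRN163L, as did 7740 of the 12570 genes tested. The median was -0.06 beside -0.08 for all genes, and 0.12 with the arrays set to 1 median, which moves all genes up alike.

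The mitochondrial chaperones had no call either. Their medians were 0.03 in the combination against control and 0.15 for GRN163L, beside -0.07 and 0 for all genes. With the arrays set to 1 median, which moves all genes alike, the first was 0.20. HSPD1, the HSP60 chamber, read 10.64 and 10.85 in controls, 10.54 and 10.59 under LY2784544, 10.88 and 10.91 under GRN163L, and 11.04 and 11.14 under both. The 4 groups did not overlap, in the order LY2784544, control, GRN163L, both, but the neighbouring groups differed by 0.195 or less. How many of all genes had 4 groups without overlap was not counted. Between the combination and control alone, 2703 of 12570 genes were higher without overlap. The combination against control gave 0.345 (adjusted p = 0.217) and against LY2784544 alone 0.525 (SE 0.152, adjusted p = 0.195). HSPE1, the lid of that chamber, read 7.93 and 8.07 in controls, 7.68 and 7.77 under LY2784544, 8.21 and 8.45 under GRN163L, and 7.81 and 8.25 under both. GRN163L against control gave 0.33 (adjusted p = 0.995).

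HSPA9, the mitochondrial HSP70, read 10.70 and 10.87 in controls, 11.15 and 10.99 under LY2784544, 10.95 and 11.26 under GRN163L, and 10.72 and 10.72 under both. Each agent alone lay above control on both arrays, by 0.285 with LY2784544 and 0.32 with GRN163L, and the combination lay with the controls. The interaction was -0.67 (SE 0.238, -0.68 and -0.66 within the experiments), with an unadjusted p of 0.021 and an adjusted p of 0.999. DNAJC15, an import-linked DNAJ of the inner membrane, read 9.82 and 9.93 in controls, 9.55 and 9.82 under LY2784544, 10.01 and 10.16 under GRN163L, and 10.10 and 10.30 under both. Its combination array was the highest in each experiment, with a difference of 0.515 from LY2784544 alone (adjusted p = 0.239). DNAJA3, a DNAJ of the matrix, gave -0.30 in the combination against control (adjusted p = 0.296).

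Among the pseudogenes that passed the filter, HSP90AB4P read 5.27 and 5.24 in controls, 5.54 and 5.33 under LY2784544, 5.78 and 5.18 under GRN163L, and 6.01 and 5.86 under both. The combination arrays were highest, at 0.68 above control (SE 0.211, adjusted p = 0.107, called at 0.0406 with the block, 0.0406 to 0.381 over the alternatives). HSP90AA6P gave -0.565 in that comparison (SE 0.338, adjusted p = 0.349), and HSP90AA2P read between 8.69 and 9.19 and HSP90AB2P between 5.59 and 5.98. Such probe sets resemble those of the parent genes, so a share of their signal may be parent transcript. The parent genes' own values were those given for HSP90AA1 and HSP90AB1.

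**Figure D5:**
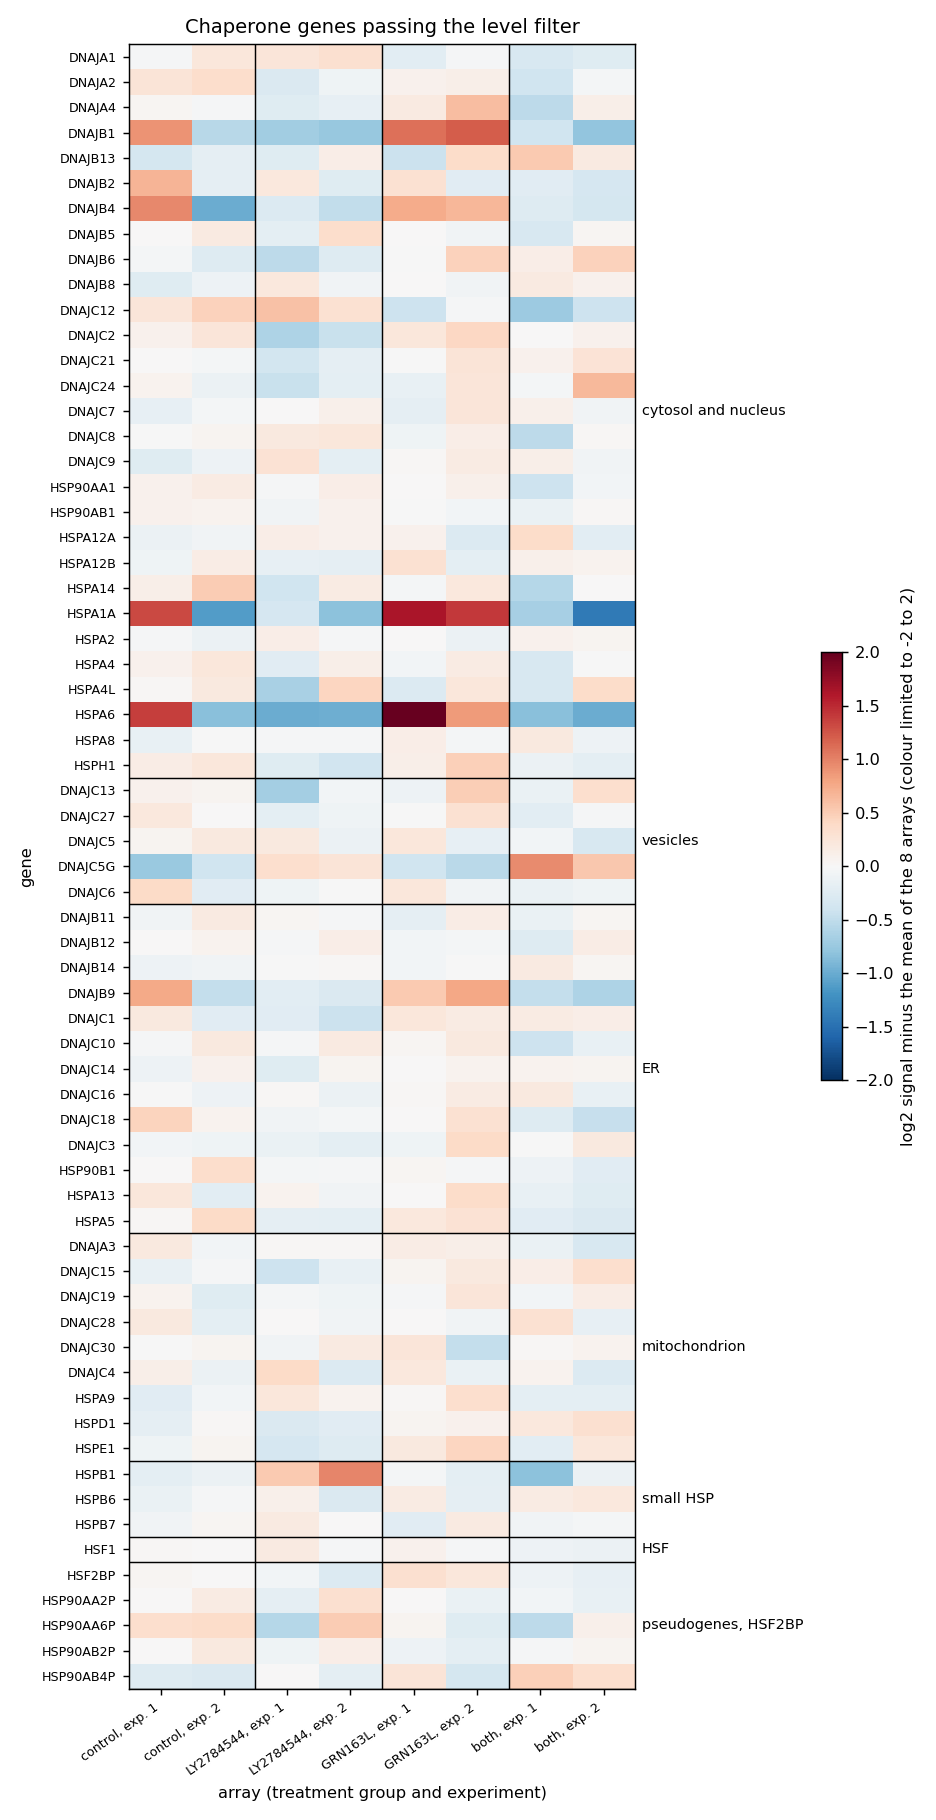
Log2 RMA signal minus the gene's mean over the 8 arrays for the 65 chaperone genes (rows, by site of action) on the 8 arrays (columns); colours are limited at ±2 log2 units. HSPA1A, HSPA6, DNAJB1 and DNAJB4 show wide swings, with the first control array coloured like the GRN163L arrays.

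By site of action, the median of the cytosolic genes was -0.21 with LY2784544, 0.06 with GRN163L and -0.21 with both agents, each against control. Over all genes the medians were -0.04, 0 and -0.07. With the arrays set to 1 median the cytosolic medians were -0.11, 0.05 and -0.03. That setting removes the difference in array medians (-0.103, 0.015 and -0.175) from every gene alike. The medians of all genes move by the same amounts, so the distance between the cytosolic genes and all genes stays. The ER genes had medians of -0.09, 0.05 and -0.11, and the vesicle genes -0.11, 0.04 and -0.18. With the arrays set to 1 median the ER medians with LY2784544 and with both agents turned to 0.02 and 0.07, and those of the vesicle genes were -0.01 in each. Within the cytosolic group the median with LY2784544 was -0.28 in experiment 1 and -0.03 in experiment 2, and with both agents -0.30 and -0.09.

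Genes that work beside the chaperones were taken from 4 lists of textbook members. The shares of all genes called are those given above, at most 3.47% in any comparison without the block. Of 14 tested genes for mitochondrial chaperones and proteases 1 was called: TRAP1, the mitochondrial HSP90, read 10.10 and 10.13 in controls, 9.74 and 9.97 under LY2784544, 9.93 and 9.87 under GRN163L, and 9.27 and 9.43 under both. It fell in the combination against control by 0.765 (SE 0.156, -0.83 and -0.70 within the experiments, adjusted p = 0.0393), beside 2.71% of all genes called lower there. Over the alternatives the adjusted p ran from 0.0186 to 0.207, and the call was lost without any 1 of the control, GRN163L or combination arrays (0.0554 to 0.198). The call was also lost with median normalization (0.0717) and on the groups compared alone (0.0923). TRAP1 has more than 1 probe set of its own, and on their mean the difference was -0.34 and not called (0.207). All 14 of these genes lay below 0 in the combination against GRN163L, as did 7740 of the 12570 genes tested, and none was called there. The median of the 14 was -0.20, beside -0.08 for all genes. The array medians of the 2 groups differed by -0.19. Of 14 genes for the CCT chamber and prefoldin, which fold actin and tubulin, none was called. VBP1, a prefoldin subunit, gave -0.96 in the combination against control (SE 0.305, adjusted p = 0.114) and was called lower with the block (0.0258, and 0.0258 to 0.48 over the alternatives).

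Of 21 tested cytosolic co-chaperones none was called in the fit over 8 arrays without the block. AHSA2P, a pseudogene on that list, is related to the HSP90 activator AHSA1. It read 7.57 and 7.36 in controls, 7.83 and 7.41 under LY2784544, 8.0 and 8.11 under GRN163L, and 8.52 and 8.18 under both. It was highest in the combination, at 0.885 above control (SE 0.199, adjusted p = 0.0504, called at 0.0186 with the block, 0.0186 to 0.239 over the alternatives). It was also called with median (0.0424) or quantile (0.0484) normalization, on averaged probe sets (0.0497), without either LY2784544 array (0.0388 each) and without the second combination array (0.0468). BAG3, an HSF1 target that links HSP70 to autophagy, read 6.93 and 6.69 in controls, 6.76 and 6.44 under LY2784544, 7.02 and 7.08 under GRN163L, and 6.26 and 6.34 under both. It was highest on the GRN163L arrays and gave -0.75 for the combination against GRN163L (adjusted p = 0.112, 0.0583 with the block).

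Of 26 genes for ER folding and the unfolded protein response none was called in that fit either. SERPINH1, the collagen chaperone HSP47, which is an HSF1 target, read 9.66 and 9.0 in controls, 9.22 and 8.82 under LY2784544, 9.63 and 9.67 under GRN163L, and 8.78 and 8.23 under both. Its first control array lay with the GRN163L arrays. The combination against GRN163L alone gave -1.145 (SE 0.268, -0.85 and -1.44 within the experiments, adjusted p = 0.114), called lower with the block (0.0304, and 0.0304 to 0.501 over the alternatives). Against control it gave -0.825 (adjusted p = 0.119, called at 0.0319 with the block, 0.0319 to 0.404 over the alternatives). HERPUD1, an unfolded protein response target that clears ER proteins, read 8.40 and 8.49 in controls, 9.14 and 8.73 under LY2784544, 8.47 and 8.94 under GRN163L, and 8.49 and 8.48 under both. LY2784544 against control gave 0.49 for HERPUD1 (adjusted p = 0.357) and -0.505 for PDIA4, a disulphide isomerase (adjusted p = 0.233). SDF2L1, an ER stress gene that works with HSPA5, gave -0.78 in the combination against control, with -0.28 and -1.28 within the experiments (adjusted p = 0.13).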

How the data were processed

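The deposited table holds log2 signals that the authors made with RMA in Affymetrix Expression Console, per the submitters' processing notes, from 150 ng of total RNA per array; a version, and whether the 8 arrays shared a run, was not given in the sources used here. Of 33297 probe sets, 19181 name 1 gene, 2055 several and 12061 have no row in the platform annotation used here; 19143 of the first matched by NCBI gene number. RNA depth has no counterpart here: 2 arrays a group limit the precision. The genes were fitted with limma 3.58.1 (R 4.3.3), as 4 group means with moderated variances (4 residual and 4.65 prior degrees of freedom), and adjusted by Benjamini-Hochberg; the code was tested on simulated data. Labels name a first and a second experiment. The deviations of same-experiment arrays from their group means correlated at 0.10 to 0.67, lowest for control and GRN163L. A fit blocked on experiment therefore stands beside the main one. The labels do not say whether arrays of a group came from separately grown cultures beyond this, so the p-values reflect array-to-array spread, which may be technical.

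Named were the chaperone genes called in any comparison, anchor genes of the heat shock and unfolded protein responses, the 3 largest differences per site of action in each comparison with control, and up to 3 genes per pathway list with the smallest p. Members, lists and this rule were chosen with earlier results of these data known. Promoter windows are RefSeq's, on GRCh38.p14. Alternatives were other level filters, normalizations and variance models, fits on only the groups compared, averaged probe sets per gene, the block, and leaving out each array.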

Additional observations from a re-analysis of the deposited data

How the results depend on the processing

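Numbers of called chaperone genes depended on the settings, and no call changed its direction. The genes called also changed, so an equal count need not hold the same genes. Without the second control array, the genes called for the combination against control were no longer DNAJC5G and DNAJC12. DNAJC5G was not tested with the filter at the 50th percentile. For the combination against control, 2 genes were called; there was 1 with no level filter, with a filter at the 50th percentile, with a mean-variance trend and with median or quantile normalization, 0 on the arrays of the groups compared alone, 4 with the experiment as a replicate block, and 0 to 2 when 1 array was left out (0 without the first control array or the first combination array). For the combination against GRN163L, 1 was called; there were 0 at the 50th percentile filter and with quantile normalization, 2 (HSPA1A and DNAJB1) on the arrays of the groups compared alone, 4 with the block, and 0 to 3 when 1 array was left out, with 3 without either control array and 0 without either GRN163L array or the first combination array. For the combination against LY2784544, 0 became 2 with the block and 0 to 1 when 1 array was left out (1, HSPB1, without the second combination array). For LY2784544 against control, 0 became 1 with the block and stayed 0 when any array was left out. GRN163L against control and the interaction stayed at 0 under all settings run. The array medians differed by -0.175 between the combination and control and by -0.19 between the combination and GRN163L; with the arrays set to 1 median, HSPA1A stayed lower and DNAJC5G higher. The causes were not tested. With 2 arrays a group, and signals of HSPB6, HSPB7 and DNAJC5G near background, small differences cannot be resolved.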

Other observations

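The most inducible HSP70 genes have near-identical neighbours, and the probe sets that hold both copies are given here because their values cannot be assigned to 1 gene; these were looked at after the values of HSPA1A were seen. The probe set annotated to HSPA1B and HSPA1A together read 10.84 and 7.96 in controls, 8.88 and 8.19 under LY2784544, 11.49 and 10.67 under GRN163L, and 8.01 and 7.49 under both agents. The probe set annotated to HSPA7 and HSPA6 read 8.93 and 6.25 in controls, 6.63 and 5.97 under LY2784544, 10.21 and 8.61 under GRN163L, and 5.57 and 6.71 under both. A second probe set of HSPA1A alone read 10.43 and 8.06 in controls, 8.80 and 8.35 under LY2784544, 10.78 and 10.57 under GRN163L, and 8.55 and 7.78 under both. On all 3 both GRN163L arrays lay above the 4 arrays with LY2784544. Probes of such copies share sequence, so they are not independent measurements, and the copies cannot be told apart here.

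DNAJB6, a cytosolic DNAJ that keeps polyglutamine proteins soluble, was chosen after its values were seen. It read 9.31 and 9.09 in controls, 8.82 and 9.09 under LY2784544, 9.34 and 9.81 under GRN163L, and 9.48 and 9.81 under both agents. Both GRN163L groups lay above both other groups, with the nearest arrays at 9.34 and 9.31, and no comparison called it. How many of all genes were parted in this way was not counted. DNAJB2, a neuronal DNAJ also chosen in this way, read 6.62 and 5.77 in controls, 6.15 and 5.70 under LY2784544, 6.25 and 5.72 under GRN163L, and 5.72 and 5.61 under both, higher in experiment 1 in every group.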
